A study of Oryctolagus cuniculus with 10 samples.

Results

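The pellet made from rabbit stem cells that had been expanded on a matrix laid down by human synovium-derived stem cells (SDSC) was compared with the other 4 pellets of the study. The members are these 5 pellet libraries of the 10 libraries in the series, chosen by their labels. The SDSC library was singled out as 1 against 4 because its measured values were already known to lie apart, so the differences between pellets are given as a description and carry no test. All libraries came from infrapatellar fat pad derived stem cells of New Zealand White rabbits. Before pellet culture the cells had been grown on tissue culture plastic (PL) or on decellularized extracellular matrix (dECM), the protein scaffold left after the cells that secreted it are removed. The 4 dECMs were deposited by human adipose stem cells (ASC), dermal fibroblasts (DF), SDSC or urine stem cells (USC). Each pellet was then kept for 21 days in chondrogenic induction medium, and cells of each substrate were also sequenced before pellet culture. The sample titles call the pellet libraries scaffolds, while their treatment entries describe pellets. Each substrate has 1 library at each of the 2 stages, and the labels do not say how many rabbits, human donors or cultures stand behind a library.

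Pellet culture packs stem cells into a dense, rounded mass, which resembles the condensation that precedes cartilage in the embryo. Growth factors of the TGF-beta family, usual parts of such media, drive the cells to switch on the transcription factor SOX9 and its targets, such as type II collagen and aggrecan, the main fibrous and water-binding components of cartilage. The synovium is the lining of the joint, and it arises from the same embryonic joint tissue as articular cartilage. Cell-deposited matrix is used as a growth surface on which stem cells multiply before they are made to differentiate. The deposited table names genes by Ensembl identifier only, and 0 of its 29587 identifiers were found in the table of rabbit gene names used here. Genes are therefore described as groups, with 4 identifiers, and the labelled cell type could not be checked against its marker genes.

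The 5 pellet libraries held from 15009094 (ASC) to 19389379 (DF) reads counted in genes, and the SDSC pellet held 19180825. Reads were found in 17157 genes in the SDSC pellet and in 16811 to 17444 genes in the other pellets. Values are on the scale log2(RPKM + 1), where RPKM is reads relative to gene length and to the counted reads of the library. On this scale 1 unit is close to a doubling of RPKM for well expressed genes and more than a doubling for genes near 1 RPKM. The comparison covers the 12244 genes that averaged 1 RPKM or more across all 10 libraries.

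Most genes differed little. In 83.4% of the 12244 genes the SDSC pellet lay within 0.5 of the mean of the other 4 pellets. The differences had a median of -0.08 and quartiles of -0.29 and 0.14, and the central 98% ran from -1.21 to 1.11. At the ends of the distribution the SDSC pellet was at least 1 higher than the mean of the others in 170 genes (1.39% of those compared) and at least 1 lower in 214 genes (1.75%). With median-of-ratios scaling, which sets the typical gene equal across libraries, the numbers were 207 and 169, so the share of higher genes went from 44.3% to 55.1%. A difference of at least 2 was found in 15 genes higher and 19 lower, and of at least 3 in 1 gene on either side. The widest differences were 3.85 and -3.27. The same measure was taken for each other pellet against the mean of its own other 4, which then include the SDSC pellet. The root-mean-square difference was 0.419 for the SDSC pellet, 0.340 for plastic, 0.279 for DF, 0.261 for ASC and 0.225 for USC. Genes at least 1 above or below that mean numbered 384 for SDSC (3.14%), 177 for plastic, 133 for DF, 95 for ASC and 62 for USC.

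**Figure D1:**
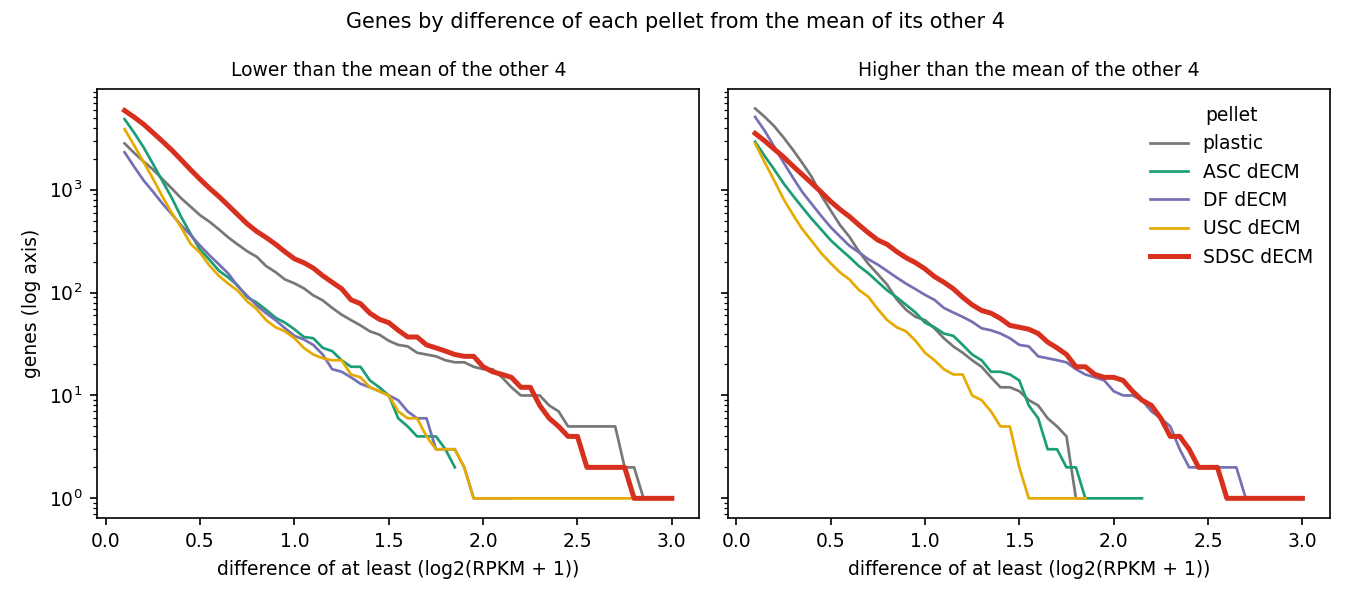
Number of genes (log axis) that differ from the mean of the other 4 pellets by at least the value on the horizontal axis, on the log2(RPKM + 1) scale, with lower genes on the left and higher genes on the right. Each line is 1 pellet library; at a difference of 1 the SDSC dECM line stands at 214 lower and 170 higher genes, above the lines of the other 4 pellets, while beyond about 2 it meets the plastic line on the left and the DF line on the right.

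Far from the center the SDSC pellet was not alone. At a difference of at least 2, plastic had 18 genes lower and the SDSC pellet had 19, and on the high side DF had 11 genes and the SDSC pellet had 15. At a difference of at least 0.5, by contrast, the SDSC pellet had 1265 genes lower and 771 higher, and the next highest numbers were 566 and 631, both in plastic.

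Set against each other pellet singly, the SDSC pellet was nearest to ASC and farthest from plastic. The root-mean-square difference was 0.421 from ASC, 0.431 from USC, 0.474 from DF and 0.536 from plastic. The 6 pairs among the other 4 pellets differed by 0.306 (ASC and USC) to 0.396 (plastic and ASC), so each of the 4 distances of the SDSC pellet was larger than each of those 6. These 4 comparisons share the SDSC library. Against plastic, the SDSC pellet was at least 1 higher in 327 genes (2.67%) and lower in 361 (2.95%). Against DF it was higher in 214 genes (1.75%) and lower in 283 (2.31%). Against ASC, 139 genes were higher (1.14%) and 264 lower (2.16%), and against USC, 197 were higher (1.61%) and 203 lower (1.66%). Genes lower by at least 2 numbered 41 against DF, 25 against ASC and 20 against plastic and against USC. Genes higher by at least 2 numbered 45 against plastic, 24 against DF, 22 against USC and 6 against ASC. The strongly higher genes thus depended on the partner, many against plastic and few against ASC.

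The middle of the distribution was shifted too, by -0.15 against plastic, -0.12 against DF, -0.05 against USC and -0.02 against ASC in the median over all compared genes. The SDSC pellet was the lowest of the 5 pellets in 38.6% of genes and the highest in 22.0%. This imbalance moved with the scaling of the libraries. With median-of-ratios scaling, the SDSC pellet was lowest in 29.1% and highest in 31.6% of genes. It was the highest or the lowest in 60.6% of genes as deposited, against 52.6% for plastic, 33.4% for ASC, 30.1% for DF and 22.8% for USC.

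A stricter count takes genes in which the SDSC pellet lay above or below each of the other 4 pellets by at least 1. There were 44 such higher genes (0.359%) and 76 lower genes (0.621%), together 0.98% of those compared. The same count, in either direction, was 0.302% of genes for the plastic pellet, 0.204% for DF, 0.0653% for USC and 0.0572% for ASC. With median-of-ratios scaling the numbers were 59 and 57, so the excess of lower genes was not kept, while the sum changed little (116 against 120). Of the 44 higher genes, all 44 were also found with that scaling, as were 57 of the 76 lower genes. The rule takes in genes on either side of a continuous range. The smallest gap kept was 1.009 above and -1.006 below, and the nearest left out were 0.998 and -0.994. Between gaps of 0.9 and 1 lay a further 25 higher and 26 lower genes. At a gap of at least 0.5 the SDSC pellet stood above in 295 genes and below in 513. At 1.5 the numbers were 7 and 19, and at 2 they were 1 and 3.

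**Figure D2:**
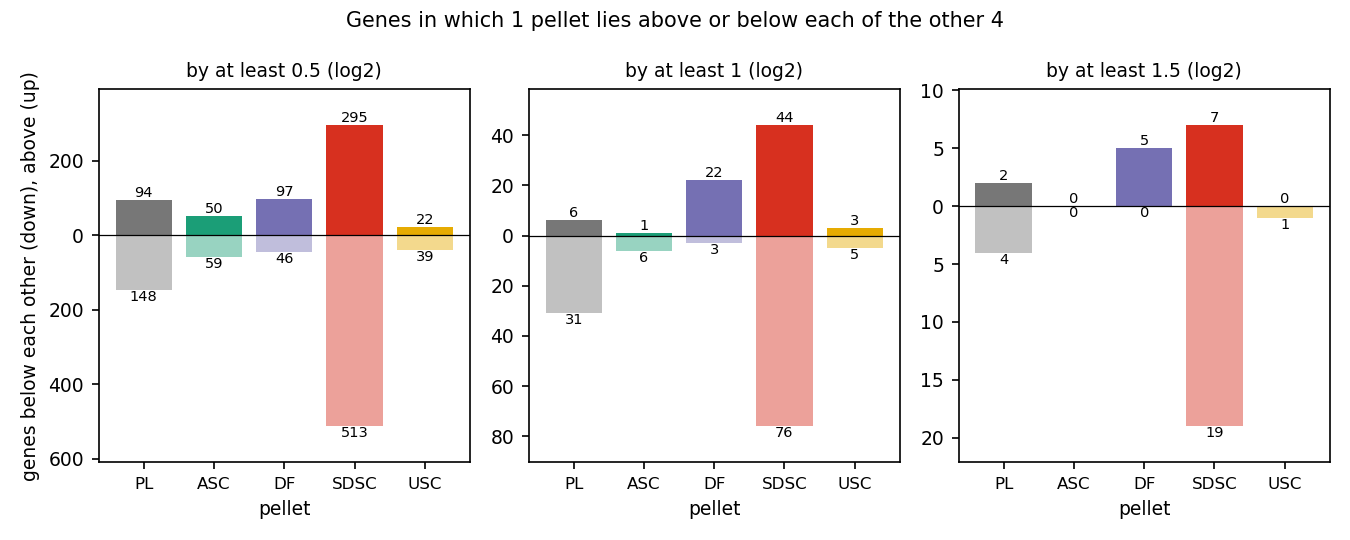
Number of genes in which 1 pellet lies above (upward bars) or below (downward, paler bars) each of the other 4 pellets by at least 0.5, 1 or 1.5 on the log2(RPKM + 1) scale, 1 library per bar, with a separate vertical axis in each panel. The SDSC bars are the longest in each panel, for instance 295 and 513 genes at 0.5 against at most 97 and 148 in any other pellet.

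For the 44 and 76 genes the other 4 pellets lay close together. The range from the lowest to the highest of these 4 had a median of 0.74 for the higher genes and 0.62 for the lower genes. In 34 of the 44 higher genes, and in 67 of the 76 lower genes, the gap to the nearest pellet was larger than that whole range. The spread was still wider than in other genes: the SD over the other 4 pellets had a median of 0.33 in the higher genes and 0.29 in the lower ones, against 0.16 over all genes compared. Among the higher genes the pellet next below was ASC in 23 of 44, plastic in 8, USC in 7 and DF in 6. Without the ASC pellet the count of higher genes was 99 in place of 44. Among the lower genes the next pellet was spread evenly, USC in 23, plastic in 19, ASC in 18 and DF in 16.

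Counting error was small for most of these genes. The 44 higher genes had a median of 590.5 reads in the SDSC pellet and the 76 lower genes a median of 207. Exact Poisson intervals (95%) of the SDSC pellet cleared those of each of the other 4 pellets in 40 of the 44 and 69 of the 76 genes; these intervals cover the counting of reads only and not differences between cultures. Over all 12244 genes the SDSC intervals lay above the other 4 in 984 and below them in 1683. The plastic pellet lay above in 1362 genes, more than the SDSC pellet, and below in 404, and the other 3 pellets lay above in 70 to 316 and below in 125 to 365. These counts used the scaling as deposited and were not repeated with median-of-ratios scaling. Its factors were 1.13 for the plastic pellet, 1.12 for DF, 1.06 for USC, 1.04 for ASC and 1.01 for SDSC. The genes apart by at least 1 were spread over levels of expression. They made up 0.448% of genes with a mean of 1 to 2 RPKM, 0.991% from 2 to 5, 1.08% from 5 to 20, 0.817% from 20 to 100 and 1.71% at 100 RPKM or more. The SD of the differences stayed between 0.388 and 0.493 across these levels, while the median SD from counting alone fell from 0.138 to 0.026.

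Over the whole table, 0 genes had no reads in the SDSC pellet and at least 10 reads in each other pellet, and 0 genes had at least 10 reads there and none in the others. The same counts were 0 in each of the other 4 pellets. Reads were recovered as the smallest whole numbers that fit the values of a gene. A gene found in a single library therefore counts as a single read and could not reach 10, so these counts of 0 say nothing on such genes.

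The higher and lower genes were followed through all 10 libraries to see where their levels came from. The 44 higher genes had a median of 17.8 RPKM in the SDSC pellet. In the other pellets their median was 4.66 (plastic), 4.89 (DF), 5.68 (ASC) and 5.83 RPKM (USC). In the cells the same genes had medians of 17.4 (SDSC), 18.3 (plastic), 20.4 (DF), 20.8 (ASC) and 20.9 RPKM (USC). By these medians the level in the SDSC pellet was in the range seen in cells, while the other pellets stood lower. Single genes differed both ways on SDSC dECM. Of the 44, 9 were at least 1 higher in the pellet than in its cells, and 12 at least 1 lower. The choice of genes fixes which pellet is high and says nothing about the cells.

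The 76 lower genes had a median of 6.68 RPKM in the SDSC pellet. Their medians in the other pellets lay between 22.5 (plastic) and 24.7 RPKM (DF). In the cells the medians were 3.25 (plastic), 4.08 (SDSC), 5.04 (USC), 6.21 (ASC) and 7.20 RPKM (DF). Again the median of the SDSC pellet lay in the range of the cells, and the medians of the other pellets lay outside it. Single genes again differed both ways on SDSC dECM. Of the 76, 25 were at least 1 higher in the pellet than in its cells, and 12 at least 1 lower. Of these genes, 8 of 76 (10.5%) were under 1 RPKM in all 5 cell libraries, as were 3 of the 44 higher genes (6.82%) and 1.73% of all genes compared. Genes this low in cells passed the filter on low values only through the pellets. In a pellet, fewer cells that express a gene and less RNA per cell cannot be told apart.

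**Figure D3:**
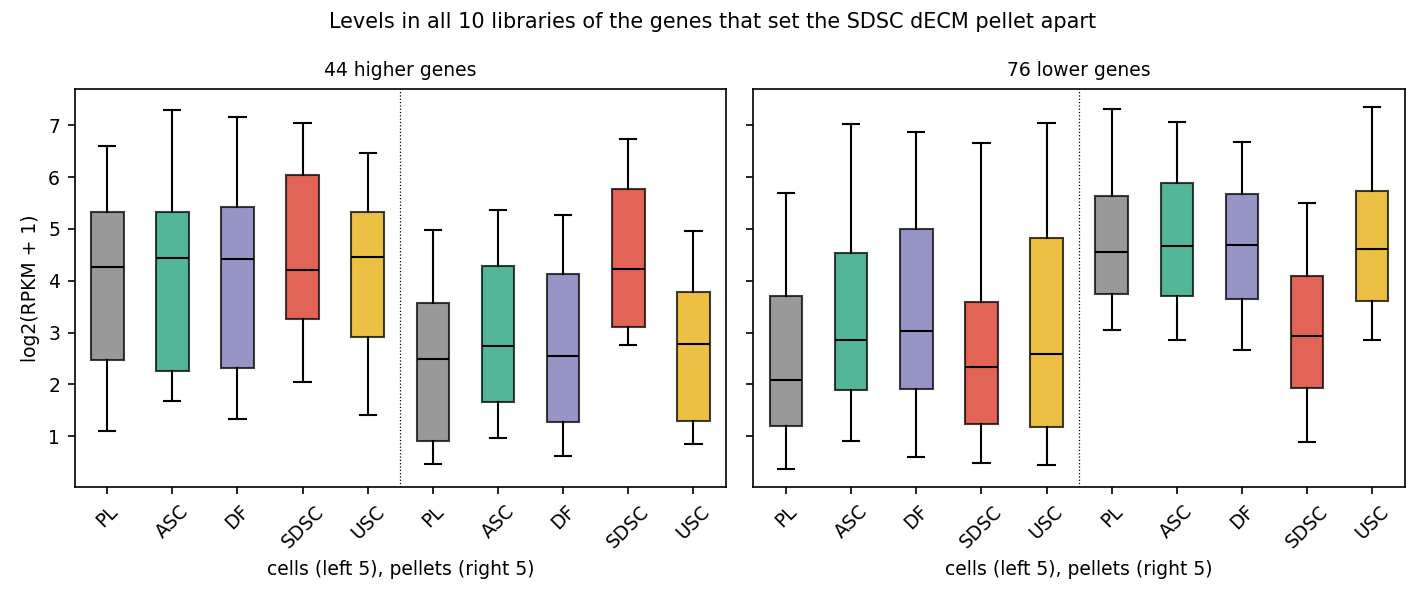
Levels, as log2(RPKM + 1), of the 44 higher genes (left) and the 76 lower genes (right) in the 5 cell libraries and the 5 pellet libraries. Boxes span the quartiles over genes with the median as a line, and whiskers run from the 10th to the 90th percentile; the red SDSC pellet box lies near the level of the cell libraries in both panels, away from the other 4 pellets.

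Both groups took up a small part of the transcriptome. The higher genes held 0.468% of the RPKM total in the SDSC pellet and 0.113% to 0.145% in the other pellets. The lower genes held 0.293% in the SDSC pellet and 0.920% to 1.06% in the others. In the SDSC pellet 6 of the 44 higher genes reached 100 RPKM, and in the other pellets 0 to 2 did. Of the 76 lower genes, 3 reached 100 RPKM in the SDSC pellet and 9 to 12 did in the others.

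Differences were also counted among the most abundant genes. Of the 100 genes with the highest mean over the 10 libraries, each with at least 659 RPKM on average, 4 were at least 1 higher in the SDSC pellet than the mean of the others and 1 was at least 1 lower, together 5.0% of them, where 3.14% of all genes compared differed by as much. These 100 genes held 26.7% of the RPKM in the SDSC pellet and 22.7% to 26.6% in the other pellets. Among the 500 most abundant genes, 12 were higher and 12 lower by at least 1, or 4.8%.

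The counted length of a gene is the length of its gene model, which equals the coding length where a model holds no untranslated regions. The median was 1306.5 bases in the higher genes, 1374.5 in the lower genes and 1802 over all genes compared. The upper quartiles were 2441, 2377 and 3015 bases. Both groups were thus on the short side, and the part of length in the result was not tested here.

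Each pellet was next set against the cells of its own substrate. The higher genes were mostly lower in the pellet than in the cells on the other substrates, with a median change of -1.49 on plastic, -1.42 on DF, -1.29 on USC and -0.97 on ASC. On SDSC dECM the median change was 0.12. Among the 44 genes, 32 were lower in the pellet than in the cells on all of the other 4 substrates, and 13 of these 32 were higher in the pellet on SDSC dECM, the other 19 being lower there too. Only 3 of the 44 were higher in the pellet on all of the other 4 substrates. In 4 genes the change on SDSC dECM was at least 1 upward while it stayed within 1 on each of the other 4. The higher group thus consisted mostly of genes that cells express and that were lower in the other pellets.

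The lower genes showed the reverse. Their median change was 2.14 on plastic, 1.72 on USC, 1.47 on ASC and 1.34 on DF, and 0.58 on SDSC dECM. Of the 76 genes, 56 were higher in the pellet than in the cells on all of the other 4 substrates, and 48 of these 56 were higher on SDSC dECM as well. The remaining 8 were lower there. On each of the other 4 substrates, 40 genes were at least 1 higher in the pellet, and 17 of these 40 differed by less than 1 from the cells on SDSC dECM. Because these comparisons share the pellet libraries by which the genes were chosen, the order of SDSC against the rest is fixed by the choice, and the values serve to place the genes. Over all 12244 genes the median change was 0.12 on SDSC dECM and from 0.14 (USC) to 0.24 (DF) on the others.

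To describe the whole change rather than chosen genes, the change of each substrate was set against the mean change of the other 4, which hold none of its libraries. On SDSC dECM the slope through 0 over the 12244 genes was 0.802, with a correlation across genes of 0.853; genes are not independent replicates. The slopes of the others were 0.847 (plastic), 0.965 (USC), 1.04 (ASC) and 1.06 (DF), with a correlation of 0.775 for plastic and 0.878 to 0.909 for the 3 dECMs. The change from cells to pellet was smallest on SDSC dECM also by its root mean square, 0.846 against 0.941 to 1.02 on the other substrates. Plastic was close in slope but scattered more around it. With median-of-ratios scaling the slope was 0.811 for SDSC and 0.826 for plastic. A slope under 1 can come from the cells, the pellet or both, and these were not separated.

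**Figure D4:**
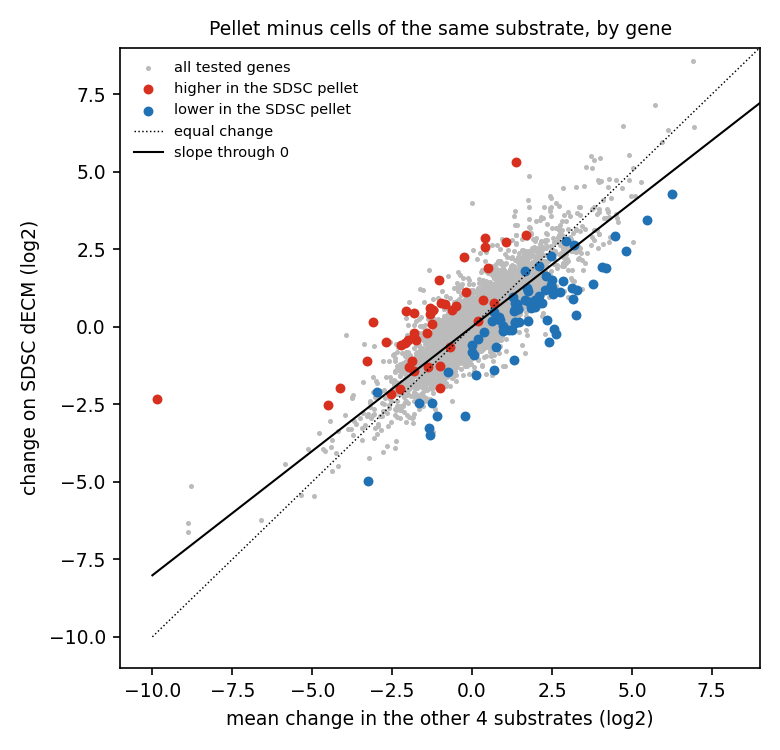
Change from cells to pellet on SDSC dECM (vertical, log2) against the mean change on the other 4 substrates (horizontal, log2), with 1 point per gene for the 12244 genes. The solid line has the slope of 0.802 and the dotted line marks equal change; the 44 genes higher in the SDSC pellet (red) lie mainly at the left, where the other pellets are below their cells, and the 76 lower genes (blue) mainly at the right, where they are above.

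Genes with large changes elsewhere were taken without looking at the substrate in question. On each of the other 4 substrates, 153 genes were at least 2 higher in the pellet than in the cells. On SDSC dECM 119 of them (77.8%) reached 2 as well, with a median of 2.73, where the mean of the other 4 had a median of 3.24. In 2 of the 153 the difference was under 1. Chosen in the same way for each substrate, 73.9% reached 2 on plastic (median 2.81), 96.0% on USC (3.03), 97.5% on ASC (3.49) and 97.5% on DF (3.45). The same 119 genes reached 2 each time, being those past 2 on all 5 substrates. The shares therefore differ only by the size of the starting set (161 for plastic, 124 for USC, 122 for ASC and 122 for DF). They are not 5 separate comparisons. For genes at least 2 lower in the pellet on each of the other 4, 84.2% of 76 were so on SDSC dECM, with a median of -2.79, against 70.3% on plastic, 83.1% on USC, 94.1% on ASC and 97.0% on DF. Here too the same 64 genes were counted each time. Most genes with large changes elsewhere thus differed in the same direction on SDSC dECM and by less, as on plastic. For the 10 genes at least 4 higher in the pellet on all 5 substrates, the median difference was 4.93 on SDSC dECM and 5.25 to 5.36 on the others, and 1 of the 10 was among the 76 lower genes. The 6 genes at least 4 lower on all 5 had a median of -5.85 on SDSC dECM and of -6.78 to -7.98 on the others.

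The cell libraries were not used to single out the SDSC pellet, so they allow a test. SDSC cells were compared with the other 4 cell libraries by limma, with both stages sharing 1 estimate of the spread and the single SDSC library assumed to vary like the others. No gene passed (0 of 12244, 0%), and 473 genes had an unadjusted p under 0.05, 213 higher (1.74%) and 260 lower (2.12%) in SDSC cells; with recovered reads in limma-voom the number called was 0 as well. Without the filter on low genes 102 genes passed. The plastic cell library decided this count. Without it, SDSC cells differed from the 3 other dECM cell libraries in 267 genes, 130 higher (1.06%) and 137 lower (1.12%). Without the ASC, DF or USC cell library the count stayed at 0.

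The genes apart in pellets were then read in these cells. In SDSC cells, 55 of the 76 lower genes (72.4%) lay below the mean of the other cells, where 56.4% of all genes compared did. At least 1 below that mean were 13 of the 76 (17.1%), against 1.31% of all genes, and 1 was at least 1 above it. The SDSC cells were the lowest of the 5 cell libraries in 27 of the 76 genes (35.5%, against 18.8% of all genes). The median difference of the 76 genes was -0.43, and it rested on the dECM cells: it was -0.64 against DF, -0.44 against ASC and -0.37 against USC, but 0.02 against plastic cells. Without the plastic cells, the median difference of the 76 genes was -0.52. Of them, 58 (76.3%) were lower in SDSC cells, against 53.9% of all genes. Part of this group was thus low in SDSC cells before pellet culture, as it was in plastic cells. That the plastic pellet did not share the low level is fixed by the choice of genes.

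The 44 higher genes were less uniform in the cells. In SDSC cells, 28 of 44 (63.6%) lay above the mean of the other cells, where 43.6% of all genes did, and the median difference was 0.09. At least 1 above were 7 genes (15.9%, against 0.882% of all genes), and 3 genes were at least 1 below (6.82%, against 1.31%). The SDSC cells were highest of the 5 in 10 genes (22.7%, against 11.4% of all genes) and lowest in 0 (against 18.8%). Without the plastic cells, the median difference of the 44 genes was 0.05. Of them, 23 (52.3%) were higher in SDSC cells, against 46.1% of all genes, and 21 were lower. Differences of at least 1 were thus more frequent in both directions than among all genes. Both groups also varied more among the other 4 pellets. The median SD there was 0.33 for the higher and 0.29 for the lower genes, against 0.16 over all genes. All genes are therefore not a matched background for either group.

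Single genes show these patterns with all their values. They are the identifiers with the largest gaps above and below the other pellets. ENSOCUG00000027368 (counted length 249 bases) stood at 18.6 RPKM in the SDSC pellet, from 89 reads, with a 95% Poisson interval of 14.97 to 22.9 RPKM. In the other pellets it was at 1.86 RPKM with 9 reads (DF), 0.210 RPKM with 1 read (USC) and 0 reads (plastic and ASC). The SDSC pellet alone held more than a few reads of it. In cells the gene was at 7095 (ASC), 3838 (DF), 2565 (USC), 96.6 (SDSC) and 35.8 RPKM (plastic). The pellet with the most of this transcript thus came from cells with far less of it than the cells on the other 3 dECMs. SDSC cells differed from the other cells by -3.70 (SE 2.24) on the log2 scale, which was not called (limma, adjusted p = 1). Without the plastic library, the only one below the SDSC cells, the difference was -5.40 (SE 0.62; limma, adjusted p = 0.00457), a value that depends on that omission and on a single SDSC library.

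ENSOCUG00000029682 (2432 bases) was at 76.5 RPKM in the SDSC pellet and at 19.6 (ASC), 18.9 (DF), 16.5 (USC) and 7.95 RPKM (plastic) in the other pellets, 4.86 times their mean of 15.7 ± 5.35 RPKM (SD, n = 4 pellets on different substrates). In cells it was at 591 (DF), 549 (ASC), 417 (USC), 305 (SDSC) and 45.1 RPKM (plastic). Its level was lower in the pellet than in the cells on all 5 substrates, by -1.98 on SDSC dECM and by -4.89 to -4.58 on the other 3 dECMs, and by -2.37 on plastic. The gap between the SDSC pellet and the others is why this gene was chosen. In cells the SDSC library lay among the others.

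ENSOCUG00000016556 (1911 bases) was the gene with the largest gap on the low side, at 6.68 RPKM from 245 reads in the SDSC pellet. The other pellets held 121 (plastic), 74.7 (ASC), 72.1 (USC) and 43.8 RPKM (DF), a mean of 77.9 ± 32.0 RPKM (SD, n = 4 pellets on different substrates), which is 11.7 times the SDSC value. In cells the gene ranged from 6.99 (SDSC) to 13.7 RPKM (plastic), with 9.29 (ASC), 11.1 (USC) and 12.01 RPKM (DF) between. From cells to pellet its log2 difference was -0.06 on SDSC dECM and 1.78 (DF) to 3.05 (plastic) elsewhere. It was thus higher in the pellet on the other 4 substrates and near the level of the cells on SDSC dECM. In cells the SDSC library differed from the mean of the others by -0.64 (SE 0.41; limma, adjusted p = 1).

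ENSOCUG00000018554 has a counted length of only 90 bases and few reads. It had 0 reads in the SDSC pellet and 9 (ASC), 6 (DF), 6 (USC) and 5 (plastic) in the others, or 6.66, 3.44, 3.48 and 3.16 RPKM. A count of 0 allows up to 3 reads, or 1.74 RPKM, and with so few reads in the other pellets no fold is given. Its 1 or 2 reads in each cell library do not allow a comparison there.

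**Figure D5:**
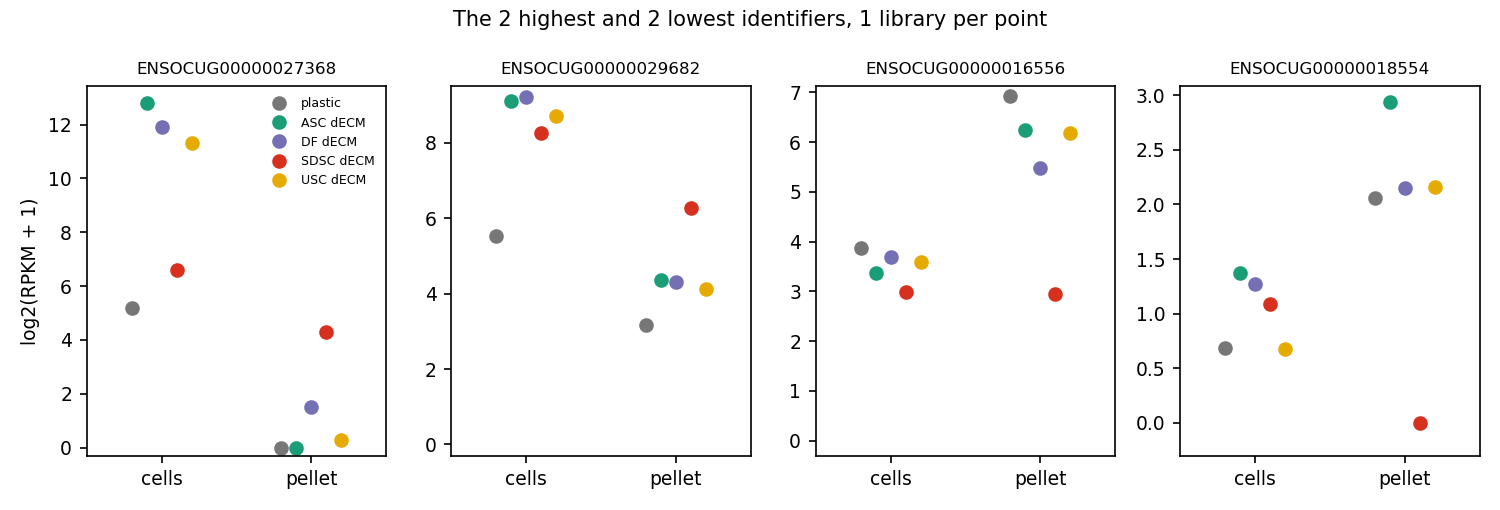
Levels of the 4 identifiers with the largest gaps, as log2(RPKM + 1), in cells and pellets; each point is 1 library and its colour gives the substrate, and the vertical axis differs between panels. In the 2 panels on the left the SDSC pellet lies above the other 4 pellets, and in the 2 on the right it lies below them, while in cells the SDSC library lies within the range of the others except for ENSOCUG00000016556, where it is the lowest.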

How the data were processed

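Per the labels' protocols, total RNA went into KAPA mRNA HyperPrep libraries. Subread, featureCounts and the build OryCun2.0 are listed in the submitters' processing notes; for their versions, the annotation and the strand setting the sources used here say nothing. The authors deposited 1 table of log2 values, log2(RPKM + 1) with 0.0001 added. Undoing this gave values that fit whole reads for all 21536 genes above 0 (largest deviation 4.28e-08). The search looked for whole numbers, so a small deviation is partly built in. It kept the smallest numbers that fit, so reads that share a factor, or lie in a single library, are understated. With 1 common factor of 0.9998 on the library totals, 99.9% of the counted lengths of compared genes lay within 0.05 of a whole base. This settles the divisor. Genes were filtered at a mean of 1 RPKM. The pseudocount was 1 RPKM, so differences of low genes are understated.

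The pellet members, the lists and the comparisons were chosen with earlier results of these data known. Differences between pellets were described without tests. Dixon's ratio was applied to library-level measures only, to mark far values. SDSC cells were tested with limma 3.58.1 (R 4.3.3; 4 stage and class means, prior variance following expression level; two-sided, Benjamini-Hochberg adjusted, threshold 0.05). Their p-values rest on the spread over substrates; no culture was repeated. On simulated data with 12244 genes this test recovered 8%, 60%, 82% and 90% of genes changed 1.5, 2, 4 and 8-fold. The changed genes were drawn at random and given normal noise, so these shares may not hold for genes that vary widely between substrates. Identifiers were named by the largest gaps from all other pellets, 2 on each side; gene lists written for symbols were not tested, since 0 identifiers matched the 38822 genes of the name table (assembly mOryCun1.1). Other work used Python 3.11.15, numpy 2.4.6, pandas 2.3.3, scipy 1.17.1 and matplotlib 3.10.9. Alternatives covered the pseudocount, filter, scaling, variance prior, reads and left-out libraries.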

Additional observations from a re-analysis of the deposited data

Results flagged for a closer look

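Over the 5 pellets, 11 library-level measures were checked with Dixon's test for single far values. It marked 1. Chance marks about 1 in 20 measures that were not chosen for their values, a rate that does not hold for this one. The number of genes apart from each other pellet by at least 1 was 120 for the SDSC pellet, far from the next value of 37 for plastic and from 25 (DF), 8 (USC) and 7 (ASC). The ratio of the gap to the range was 0.735, against a critical value of 0.71. The SDSC pellet had been singled out on this measure, so the value is a description only. Depth, genes with reads and total RPKM did not stand apart in that pellet.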

How the results depend on the processing

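Of 133 values under other settings, 106 stayed within a set margin of the main value, 27 moved and 0 reversed. Each value was judged alone, and the balance of higher and lower genes did change with median-of-ratios scaling. Genes above and below each other pellet went from 44 and 76 to 59 and 57. Genes higher and lower than the mean went from 170 and 214 to 207 and 169. The pseudocount moved the most. With 0.1 and 5 RPKM, the genes above each other pellet numbered 81 and 17, those below 121 and 31, those higher than the mean 319 and 68, and those lower 358 and 93; the root-mean-square difference was 0.522 and 0.314. Against single pellets the same pseudocounts gave 1073 and 321 genes (plastic), 706 and 162 (ASC), 824 and 230 (DF), and 694 and 171 (USC). A minimum of 5 RPKM tests fewer genes and gave 110 genes higher than the mean, 261 against ASC and 257 against USC. Without a filter the root-mean-square difference was 0.339, and limma called 102 genes in SDSC cells, 98 of them higher. The median cell difference of the higher genes was 0.0401 with 5 RPKM and 0.161 with median-of-ratios scaling; the cause was not tested.

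Leaving out 1 other pellet gave 53 to 99 genes above and 90 to 104 below each remaining pellet, 155 to 194 higher and 212 to 237 lower than their mean, and a root-mean-square difference of 0.404 to 0.442. Leaving out 1 other substrate at both stages gave median cell differences of 0.04 to 0.14 for the higher genes and -0.50 to -0.31 for the lower ones, and slopes of 0.751 to 0.813. In cells, limma called 0 to 267 genes with 1 other cell library left out, the 267 without plastic. No paired analysis was possible because the tested comparison lies within the cells, where each substrate has 1 library and the labels give no replicate numbers. Pellets pair with the cells of their substrate, but that change holds the pellet values by which the SDSC library was singled out, so it was described without a test. With 1 library per group, no alternative can show how repeat cultures vary.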
